A study of Mus musculus with 20 samples.

Results

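The 9 genes described here are the Sertoli cell's hormone, hormone-response and identity genes Fshr, Inha, Inhbb, Amh, Shbg, Rhox5, Gata4, Sox9 and Wt1. They were taken by symbol from a table of counts for 22066 gene symbols in 20 mouse testis libraries. All 9 were present, none had a count of 0 in any library (the lowest was 33), and all 9 were among the 16534 symbols that passed the filter on low counts. The libraries came from whole testis of NSG mice, an immunodeficient strain, in 5 groups of 4. NC was the normal control. ALL carried B-ALL, an acute leukaemia of B-cell precursors, as a xenograft grown from a patient's cells, and received no vincristine. VCR received vincristine, a drug that binds tubulin, and its labels name no leukaemia cells. Low-VCR and High-VCR received vincristine with low or high B-ALL infiltration of the peripheral blood. All mice were males of the same strain, 6 weeks old per the labels' protocols, and leukaemia cells were injected through the tail vein. Vincristine sulfate was given into the peritoneum at 0.5 mg/kg in 3 weekly injections from day 69, with saline for controls. With dosing from day 69, 6 weeks cannot be the age of the treated testes at collection, which is not stated here. The engraftment was a single xenograft model in mice whose immune system accepts human cells, and the testis samples were a mixture of cell types.

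Sertoli cells line the seminiferous tubules and nourish the germ cells. They respond to follicle-stimulating hormone through the receptor Fshr, which acts through cyclic AMP, and to testosterone. They signal back to the pituitary with inhibin B, a dimer of the products of Inha and Inhbb, and secrete anti-Müllerian hormone (Amh) most strongly before puberty. Sox9, Gata4 and Wt1 are transcription factors that set up or maintain the cell's identity.

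Throughout, a level is in CPM, the count scaled to a fixed library total after TMM normalisation, a value written as a number ± a number with no unit is a log2 fold change ± its standard error, and n = 4 per group. Tests are edgeR's quasi-likelihood test in one fit of the 5 groups. "Rose" and "fell" are used for a Benjamini-Hochberg adjusted p under 0.05 over the 16534 genes. The labels give separate samples but do not say that each came from its own mouse, and a p-value here reflects only how far these samples scatter, which may be partly technical. NC libraries serve in both comparisons against NC, and ALL libraries in both comparisons against ALL, so values from such pairs of comparisons are set side by side and are not independent.

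Library totals ranged from 9425158 to 16357287 counts. The treated libraries lay apart from the untreated ones on the first principal component (69.7% of the variance), with treated libraries at 0.39 to 238, VCR 1 the farthest, and untreated ones all below 0. Counts of 13 mitochondrially encoded genes made up 1.78% to 2.60% of untreated and 4.69% to 11.9% of treated libraries. Among marker lists, 8 spermatid genes summed to 10407 to 16065 CPM in untreated and 182 to 10342 CPM in treated libraries. All 8 fell in VCR relative to NC, where 35.6% of all tested genes fell. Relative to ALL 3 of the 8 fell in Low-VCR, where 15.2% of all genes fell, and 5 in High-VCR, where 30.5% did. Of 7 spermatocyte genes 6, 0 and 5 fell. Of 6 spermatogonial genes 2, 3 and 3 rose in the same order and none fell. Their sum was 70.0 to 85.2 CPM in untreated and 126 to 272 CPM in treated libraries. Uchl1 alone gave most of it, with a mean of 61.7 of 80.1 CPM in NC and 184 of 208 CPM in VCR. Of the rest, Zbtb16, Gfra1 and Sall4 had higher means in VCR than in NC, and Stra8 and Nanos3 lower ones. The sum thus mainly follows Uchl1 and does not stand for spermatogonial genes as a class. The genes of other somatic cells moved with the Sertoli genes. In each of the 3 vincristine comparisons 8 of 8 Leydig, 6 of 6 macrophage and 5 of 5 peritubular markers rose. Of 5 endothelial markers 4, 3 and 4 rose. Of all tested genes 42.1%, 36.4% and 42.4% rose in the same order. Leydig markers summed to 1235 to 1981 CPM in untreated and 4904 to 15864 CPM in treated libraries, with none of the 8 at 0 in any library. Macrophage markers went from 61.2 to 88.8 CPM to 299 to 727 CPM. Inha and Gata4 are also known from Leydig cells. The part of these other cell types in the values below was not tested.

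Levels of 17 other genes known from Sertoli cells were also read (Aard, Amhr2, Cldn11, Clu, Cst12, Cst9, Ctsl, Defb19, Defb36, Dhh, Gata1, Mro, Nr0b1, Rhox8, Sox8, Trf and Tsx). All 17 were detected and tested. Their summed level was 2136 to 2749 CPM in untreated libraries and 7374 to 14305 CPM in treated ones. Clu alone gave much of that sum, at a mean of 1333 CPM in NC and 7260 CPM in VCR. All 17 rose in VCR relative to NC, with a median of 1.96. The same held in Low-VCR relative to ALL, with a median of 1.73, and in High-VCR relative to ALL, with a median of 1.95. The share of all tested genes that rose was 42.1%, 36.4% and 42.4% in these comparisons. Markers of other somatic cells rose as well, so the rise of the 17 cannot set Sertoli cells apart from those. In whole testis, fewer germ cells, more Sertoli cells and more RNA per Sertoli cell cannot be told apart.

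Vincristine-treated testes held higher levels of every one of the 9 genes. In VCR relative to NC 9 of 9 rose under TMM scaling over all genes, and their median change was 1.91 against 0.10 for all tested genes. When libraries were instead scaled on the 17 other Sertoli genes, Fshr, Inhbb, Amh, Rhox5 and Wt1 changed sign. Of these Inhbb (-0.02) and Wt1 (-0.03) were near 0 and did not pass. Under TMM scaling 42.1% of all tested genes rose in this comparison, and 39.7% had higher values with no overlap between the groups, as all 9 did. In Low-VCR relative to ALL 9 of 9 rose under TMM scaling, with no overlap and a median of 1.81 against 0.08. There 36.4% of all genes rose and 35% were higher with no overlap. Inhbb, Amh, Rhox5 and Sox9 changed sign under Sertoli scaling, but Rhox5 (-0.06) and Sox9 (-0.09) were near 0 and did not pass. In High-VCR relative to ALL 9 of 9 rose, again with no overlap, with a median of 2.04 against 0.16. There 42.4% of all genes rose and 40.9% were higher with no overlap. Inhbb, Amh, Rhox5 and Wt1 changed sign under Sertoli scaling, but only Rhox5 passed and Wt1 was near 0 (-0.06). The 9 calls per comparison under TMM scaling were kept when any 1 library was left out.

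**Figure D1:**
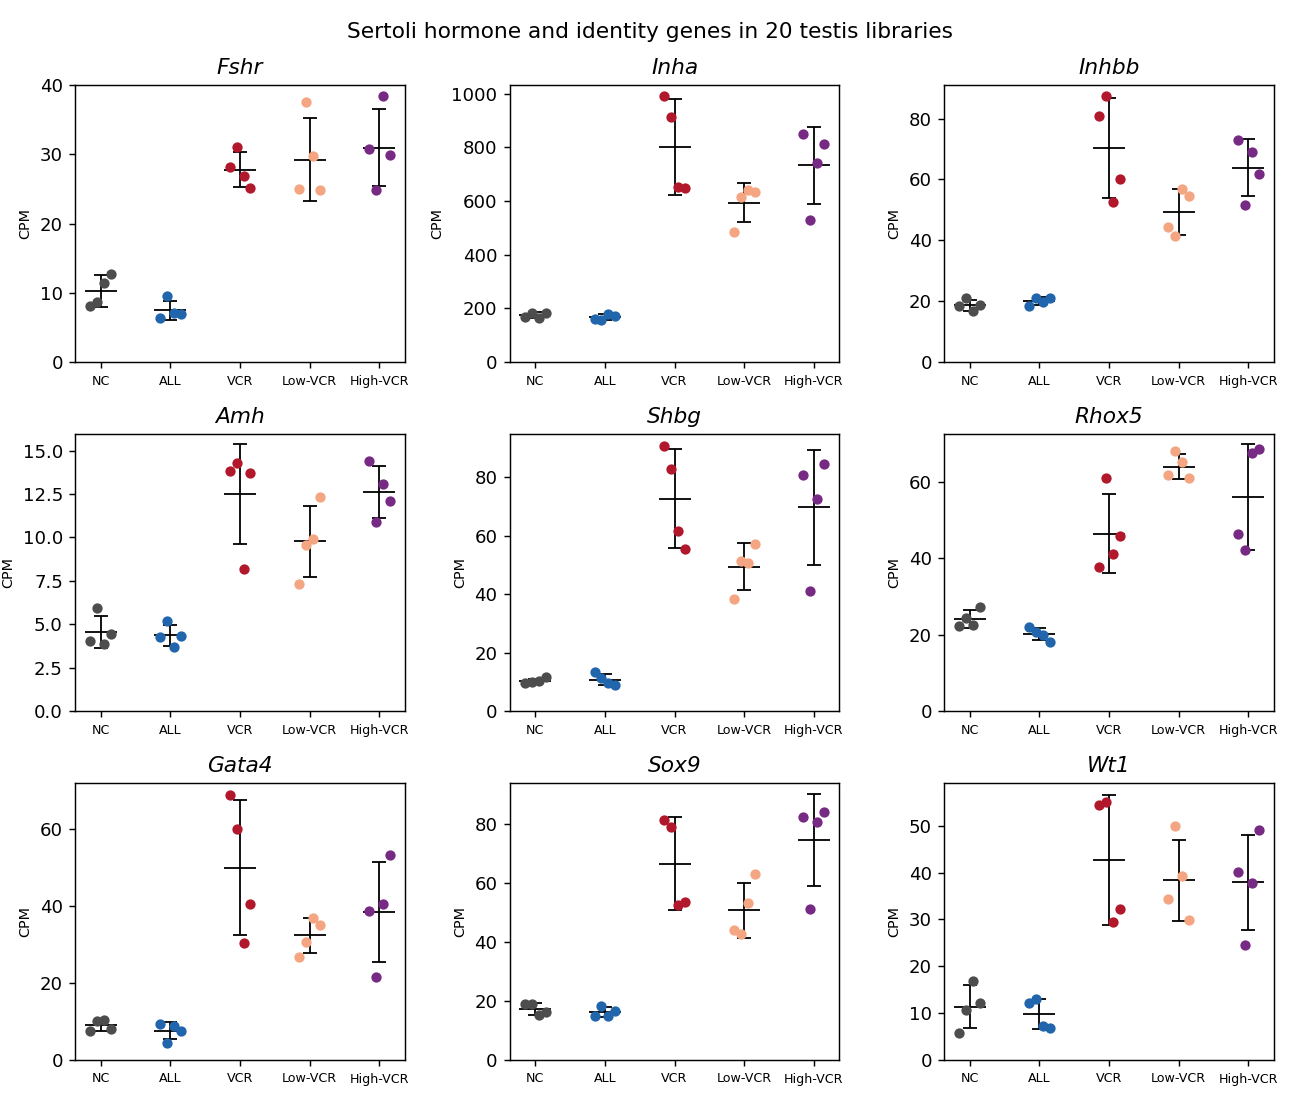
Level of each of the 9 genes in each of the 20 libraries, in CPM on a linear axis from 0, by group. Points are libraries, the long bar is the mean and the whiskers are 1 SD (n = 4). In each panel the 12 treated libraries lie above the 8 untreated ones under this TMM scaling, although under scaling on 17 other Sertoli genes the sign turns for 5 genes in the VCR comparison and for 4 in each of the comparisons with ALL. Some of these turned values are near 0 and do not pass.

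Fshr encodes the receptor for follicle-stimulating hormone, and its transcript is a standard Sertoli marker. The 250 bases before its start are shown because Fshr is the entry point of the hormone pathway. Its window also holds the only match to the E-box motif CACGTG among the windows of these genes. Other forms of the E-box were not searched. In the window at chr17:89200676-89200925 (minus strand, RefSeq, GRCm38.p6; not the authors' build GRCm39), capitals mark letters that match the GATA motif GATAA on either strand, where the other strand reads TTATC, or the E-box motif CACGTG.
Fshr: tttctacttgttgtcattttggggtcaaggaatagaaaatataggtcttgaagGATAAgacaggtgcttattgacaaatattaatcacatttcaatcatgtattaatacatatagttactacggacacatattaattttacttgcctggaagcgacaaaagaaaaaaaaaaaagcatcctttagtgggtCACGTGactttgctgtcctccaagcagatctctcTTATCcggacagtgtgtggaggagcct
GATAA matched at -197 on the gene's strand and at -27 on the other, and CACGTG at -61, counted from the last base before the start as -1. Of 32851 RefSeq windows of this length 22.6% held GATAA on either strand and 6.02% held CACGTG. These are matches of letters and not sites shown to be bound.

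Fshr was measured at 8.04, 8.72, 11.5 and 12.8 CPM in NC and at 6.42, 9.51, 7.13 and 6.95 CPM in ALL. VCR libraries gave 28.2, 31.1, 26.8 and 25.1 CPM, Low-VCR libraries 25, 37.5, 29.7 and 24.8, and High-VCR libraries 30.7, 24.9, 38.4 and 29.9. The 3 treated groups overlapped each other, and none reached down to an untreated value. Fshr rose 2.69-fold from NC to VCR (1.43 ± 0.18, adjusted p 2.18e-06). It rose 3.89-fold from ALL to Low-VCR (1.96 ± 0.19, adjusted p 1.03e-06) and 4.12-fold from ALL to High-VCR (2.04 ± 0.19, adjusted p 9.08e-08). ALL was below NC by a difference that did not pass (-0.46 ± 0.19, p 0.0257, adjusted p 1 in edgeR), with overlapping values.

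Inha encodes the alpha subunit of inhibin, the part that sets inhibins apart from activins. Its levels were 169, 185, 163 and 185 CPM in NC and 162, 158, 181 and 173 CPM in ALL. In VCR they were 991, 915, 651 and 648 CPM, in Low-VCR 485, 614, 640 and 635, and in High-VCR 850, 529, 743 and 813. The lowest treated library, Low-VCR 1, was still far above the highest untreated one. Inha rose 4.56-fold from NC to VCR (2.19 ± 0.19, adjusted p 4.25e-08), 3.52-fold from ALL to Low-VCR (1.81 ± 0.18, adjusted p 1.14e-06) and 4.35-fold from ALL to High-VCR (2.12 ± 0.19, adjusted p 7.23e-08).

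Inhbb encodes the beta-B subunit, which pairs with the alpha subunit in inhibin B and with itself in activin B. NC libraries held 18.3, 21.1, 16.8 and 18.8 CPM and ALL libraries 18.6, 21.2, 19.7 and 21. VCR libraries held 80.8, 87.5, 52.6 and 60.3 CPM, Low-VCR 44.5, 41.3, 56.9 and 54.7, and High-VCR 73.1, 51.7, 68.9 and 61.9. VCR 1 and VCR 2 stood above the other treated libraries, and Low-VCR 2 was the lowest of the 12. Inhbb rose 3.75-fold in VCR (1.91 ± 0.16, adjusted p 4.25e-08), 2.45-fold in Low-VCR (1.30 ± 0.16, adjusted p 4.55e-06) and 3.18-fold in High-VCR (1.67 ± 0.16, adjusted p 1.37e-07), each relative to its untreated group.

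Both subunits come from the same libraries, so the ratio of their raw counts does not depend on how libraries are scaled. There were 9.27, 8.77, 9.74 and 9.80 Inha counts per Inhbb count in NC and 8.73, 7.49, 9.19 and 8.24 in ALL. VCR libraries had ratios of 12.3, 10.5, 12.4 and 10.7, Low-VCR libraries 10.9, 14.9, 11.2 and 11.6, and High-VCR libraries 11.6, 10.2, 10.8 and 13.1. Every treated library had a higher ratio than every untreated one. The NC mean was 9.39 ± 0.48 and the ALL mean 8.41 ± 0.73, while VCR averaged 11.5 ± 1.0, Low-VCR 12.2 ± 1.83 and High-VCR 11.4 ± 1.27 (SD, n = 4). In exact two-sided permutation tests of the log2 ratio, VCR was above NC by 0.29, Low-VCR above ALL by 0.53 and High-VCR above ALL by 0.44, each with p 0.0286 (adjusted 0.0381 over 4 comparisons), the smallest p that 4 against 4 can give. ALL was not separated from NC (-0.16, exact permutation p 0.0571, adjusted 0.0571). Without NC 1 or NC 2 the VCR difference was 0.28 or 0.25, with adjusted p 0.0762 and 0.0571.

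**Figure D2:**
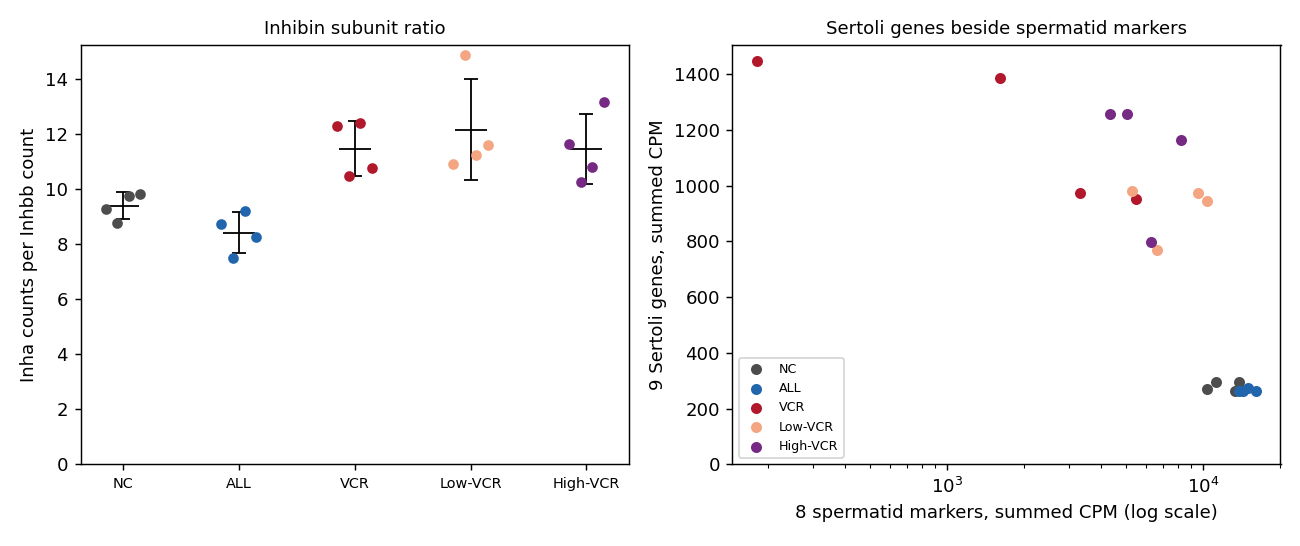
Left, Inha counts per Inhbb count in each library by group, on an axis from 0, with mean and 1 SD (n = 4). Right, the summed CPM of the 9 genes against the summed CPM of 8 spermatid markers on a log axis, one point per library. The 12 treated libraries, at ratios of 10.2 to 14.9, lie above the 8 untreated ones, at 7.49 to 9.80. VCR 1 has both the lowest spermatid sum (182 CPM) and the highest sum of the 9 genes (1446 CPM). Inha alone gives 991 CPM of the latter, so the sum mainly follows Inha.

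Amh, which causes regression of the Müllerian ducts in the fetus and marks immature Sertoli cells, had the lowest counts of the 9. It was at 4.02, 5.92, 3.88 and 4.43 CPM in NC and 4.24, 5.16, 3.71 and 4.30 in ALL. VCR libraries held 13.8, 14.3, 8.20 and 13.7 CPM, Low-VCR ones 7.31, 9.58, 9.91 and 12.3, and High-VCR ones 14.4, 10.9, 13.1 and 12.1. VCR 3 was low for its group, and Low-VCR 1 was the lowest treated library. Amh rose 2.73-fold in VCR (1.45 ± 0.20, adjusted p 5.63e-06), 2.24-fold in Low-VCR (1.16 ± 0.20, adjusted p 1.33e-04) and 2.90-fold in High-VCR (1.53 ± 0.20, adjusted p 3.67e-06).

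Shbg encodes the sex hormone-binding globulin, secreted by rodent Sertoli cells as androgen-binding protein. The 250 bases before its start are shown because Shbg rose most among the 9 genes under TMM scaling. Under the Sertoli scaling described further on, Rhox5 in VCR (-0.93 against 0.89 for Shbg) and Amh in Low-VCR (-0.57 against 0.46) moved more. In the window at chr11:69617906-69618155 (minus strand, RefSeq, GRCm38.p6), capitals mark GATAA.
Shbg: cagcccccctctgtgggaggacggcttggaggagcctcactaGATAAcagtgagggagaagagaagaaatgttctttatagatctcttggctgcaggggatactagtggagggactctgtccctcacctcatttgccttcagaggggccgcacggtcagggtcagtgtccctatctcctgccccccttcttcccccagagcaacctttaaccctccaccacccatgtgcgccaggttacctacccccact
The single match lay at -208. On both strands this window held no match for the NR5A1 motif aaggtca or for the SOX motifs aacaat and the longer aacaaag. Nor did it match the cyclic AMP element, the E-box motif CACGTG or the androgen response element by its palindrome. This says only that these letters are absent from it. Of all 32851 windows 4.08% held the NR5A1 motif, 9.42% and 5.03% the shorter and longer SOX motifs, 1.55% the cyclic AMP element and 0.00913% the androgen response element. RefSeq windows were present for 5 of the 9 genes (Fshr, Inha, Inhbb, Shbg and Rhox5). The Inhbb window held none of the motifs, and the windows of Inha and Rhox5 are not shown because the starts of those genes differ between RefSeq and GENCODE.

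Shbg was at 9.75, 9.80, 10.2 and 11.5 CPM in NC and at 13.2, 11.3, 9.57 and 9.05 in ALL. VCR libraries reached 90.8, 82.9, 61.6 and 55.4 CPM, Low-VCR libraries 38.4, 51.3, 50.7 and 57.3, and those of High-VCR 80.7, 41.2, 72.4 and 84.7. Low-VCR 1 and High-VCR 2 were the lowest treated libraries. Shbg rose 7.04-fold from NC to VCR (2.82 ± 0.22, adjusted p 3.46e-08), 4.58-fold from ALL to Low-VCR (2.20 ± 0.22, adjusted p 1.08e-06) and 6.47-fold from ALL to High-VCR (2.69 ± 0.22, adjusted p 5.48e-08).

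Rhox5, an X-linked homeobox gene that androgen induces in Sertoli cells, rose least in VCR. It was at 22.3, 24.3, 22.5 and 27.2 CPM in NC and 22, 20.6, 19.8 and 18.1 in ALL. VCR libraries were at 37.7, 61, 41 and 45.8 CPM, Low-VCR libraries at 61.7, 67.9, 65.2 and 60.9, and High-VCR libraries at 46.2, 42.2, 67.4 and 68.6. VCR 1, which had the highest Inha, Shbg and Gata4, had the lowest Rhox5 of the 12 treated libraries. Rhox5 rose 1.92-fold in VCR (0.94 ± 0.16, adjusted p 5.74e-05), 3.17-fold in Low-VCR (1.67 ± 0.17, adjusted p 1.08e-06) and 2.79-fold in High-VCR (1.48 ± 0.17, adjusted p 6.23e-07). The ALL and NC values of Rhox5 did not overlap, but the difference did not pass (-0.26 ± 0.17, adjusted p 1 in edgeR), and 5.49% of all genes were lower in ALL with no overlap.

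The 3 transcription factors rose together. Gata4, a zinc-finger factor of gonadal somatic cells, ranged from 4.35 to 10.4 CPM over the 8 untreated libraries and from 21.6 (High-VCR 2) to 68.7 CPM (VCR 1) over the treated ones. It rose 5.53-fold in VCR (2.47 ± 0.29, adjusted p 1.04e-06), 4.29-fold in Low-VCR (2.10 ± 0.29, adjusted p 1.51e-05) and 5.10-fold in High-VCR (2.35 ± 0.30, adjusted p 2.17e-06). Sox9, the testis-determining factor downstream of Sry, ranged from 14.9 to 19.1 CPM in untreated and from 42.7 (Low-VCR 2) to 84.2 CPM (High-VCR 4) in treated libraries. It rose 3.84-fold in VCR (1.94 ± 0.19, adjusted p 1.21e-07), 3.12-fold in Low-VCR (1.64 ± 0.19, adjusted p 2.42e-06) and 4.59-fold in High-VCR (2.20 ± 0.19, adjusted p 6.84e-08). Wt1, a zinc-finger factor that maintains Sertoli identity, was the most variable of the 9 in untreated testis, from 5.73 (NC 1) to 16.9 CPM (NC 3). Treated libraries lay between 24.5 (High-VCR 2) and 55.1 CPM (VCR 2). Wt1 rose 3.75-fold (1.91 ± 0.32, adjusted p 4.41e-05), 3.90-fold (1.96 ± 0.32, adjusted p 7.94e-05) and 3.85-fold (1.95 ± 0.32, adjusted p 4.48e-05) in the same 3 comparisons.

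Levels of different genes were compared per kilobase of the exons annotated in GENCODE M21. On this scale Inha was the highest of the 9 in every group, from 119 CPM per kb in NC and 114 in ALL up to 543 for VCR, 402 for Low-VCR and 498 for High-VCR. Rhox5 came next, with 31.9 CPM per kb in NC and 61.5 in VCR. Shbg went from 6.84 CPM per kb in NC to 48.3 in VCR. Wt1 was the lowest in every group but Low-VCR, at 1.83 in NC and 6.91 in VCR. In Low-VCR it stood at 6.20, above Amh at 5.85. No other gene's exons overlapped those of the 9 in that annotation.

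Whether a gene rose more or less than other Sertoli genes was read after scaling each library on the median ratio of the 17 other Sertoli genes. This scaling moved the median of all tested genes to -1.78 for VCR against NC, and to -1.65 and -1.77 for Low-VCR and High-VCR against ALL, so values from it are relative to the Sertoli set and not to total RNA. In VCR relative to NC 2 of the 9 genes rose against the reference, where 7.14% of all genes did, and 3 fell, where 75.3% of all genes did. The 17 reference genes also spread on this scale, where 4 of them rose and 3 fell. Their values ran from -0.88 (Dhh) to 0.52 (Clu), so a pass does not by itself set a gene apart from other Sertoli genes. Shbg rose (0.89 ± 0.12, adjusted p 1.78e-06) and so did Gata4 (0.52 ± 0.21, adjusted p 0.0265). Rhox5 fell by 0.93 ± 0.17 (adjusted p 6.10e-05), Fshr by 0.45 ± 0.18 (adjusted p 0.0251) and Amh by 0.45 ± 0.20 (adjusted p 0.0434). Inha (0.27 ± 0.15), Inhbb (-0.02 ± 0.14), Sox9 (0.01 ± 0.13) and Wt1 (-0.03 ± 0.24) did not pass. On the same scale 6 of 8 Leydig markers rose (median 0.84) and 5 of 6 macrophage markers (median 1.12), whereas 3 of 5 peritubular markers fell (median -0.51). Gata4 is also a Leydig gene, and the part of these cells in its value was not tested.

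The calls for Shbg and Rhox5 in VCR held when any 1 library was left out, at 0.86 to 0.91 and at -1.04 to -0.78. The other 3 depended on single libraries. Fshr was lost without NC 3, NC 4 or VCR 1 (adjusted p 0.0607, 0.0851 and 0.0761), Amh without NC 1, NC 2, VCR 1, VCR 2 or VCR 3 (0.0585, 0.196, 0.0952, 0.0673 and 0.108), and Gata4 without NC 1, NC 4, VCR 1, VCR 2 or VCR 4 (0.0650, 0.0858, 0.0765, 0.0640 and 0.0501).

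**Figure D3:**
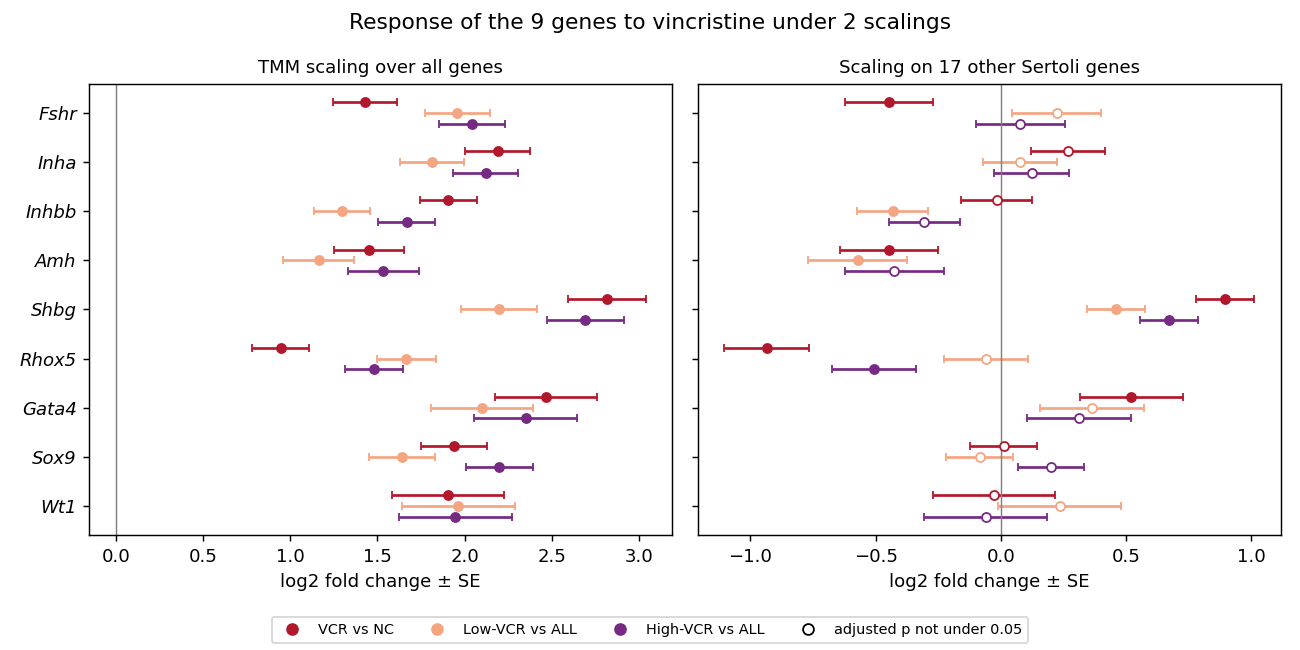
Log2 fold change ± SE of the 9 genes in the 3 vincristine comparisons under TMM scaling over all genes (left) and under scaling on 17 other Sertoli genes (right). Filled points have an adjusted p under 0.05 and open points do not. All 27 points on the left lie above 0, whereas on the right Shbg, Inha and Gata4 lie above 0 in all 3 comparisons and Rhox5, Amh and Inhbb below 0 in all 3, with Shbg alone past the threshold in each (Rhox5 is at -0.06 in Low-VCR, adjusted p 0.747).

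Relative to ALL, Shbg again rose against the Sertoli reference, by 0.46 ± 0.11 in Low-VCR (adjusted p 0.00141) and 0.67 ± 0.11 in High-VCR (adjusted p 3.76e-05). In Low-VCR it was the only one of the 9 to rise, where 2.67% of all genes did, and Inhbb (-0.43 ± 0.14, adjusted p 0.00956) and Amh (-0.57 ± 0.20, adjusted p 0.0131) fell, where 77.9% of all genes did. In High-VCR Shbg was also the only one to rise, where 4.81% of all genes did, and Rhox5 alone fell (-0.51 ± 0.17, adjusted p 0.0102), where 76.4% of all genes did. Inhbb (-0.31 ± 0.14, adjusted p 0.0544) and Amh (-0.43 ± 0.20, adjusted p 0.0546) did not pass there. Of the 17 reference genes themselves 2 rose and 2 fell in Low-VCR, and 3 rose and 3 fell in High-VCR. Leydig markers rose over the reference for 1 of 8 in Low-VCR and 5 of 8 in High-VCR, and macrophage markers for 4 of 6 in each. Without High-VCR 2 Inhbb (-0.41, adjusted p 0.0133) and Amh (-0.56, adjusted p 0.0172) fell over the reference in High-VCR. Without ALL 3 Amh fell there as well (-0.50, adjusted p 0.0407).

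By library, Shbg stood above the NC mean on this log2 scale, by 0.82 to 0.93 for VCR, 0.50 to 0.83 for Low-VCR and 0.70 to 0.92 for High-VCR, against -0.07 to 0.07 in NC. ALL libraries lay between 0.00 and 0.48, so Shbg in every treated library exceeded every untreated one. Rhox5 stood at -1.56, -0.78, -0.87 and -0.68 in the VCR libraries and at -1.10, -0.48, -0.44 and -0.61 in High-VCR. In Low-VCR it was at -0.03, -0.25, -0.18 and -0.30, overlapping ALL (-0.22 to 0.00). VCR 1 and High-VCR 1 were the low ones, and without VCR 1 the VCR value was -0.78 (adjusted p 8.23e-05). The 4 VCR libraries agreed closely for Inha, at 0.25 to 0.29.

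**Figure D4:**
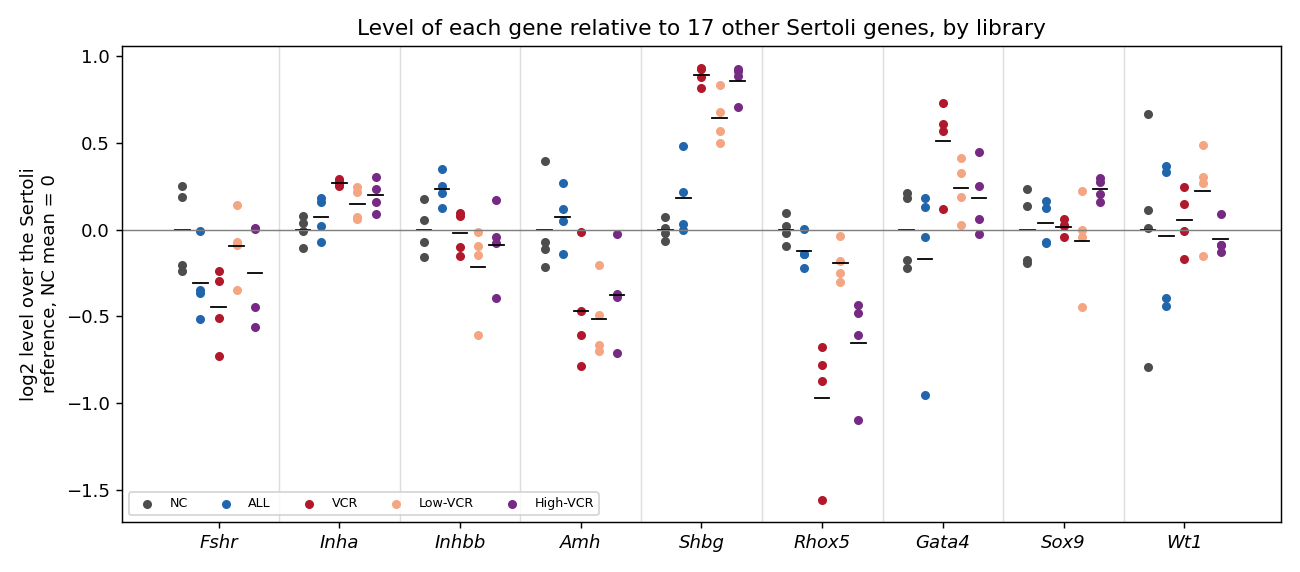
Log2 level of each gene over the median of 17 other Sertoli genes, with the NC mean set to 0, for each library. Colours are groups and bars are group means (n = 4). Shbg lies between 0.50 and 0.93 in all 12 treated libraries, and Rhox5 lies between -1.56 and -0.68 in VCR but between -0.30 and -0.03 in Low-VCR.

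Leukaemia without the drug was examined by comparing ALL with NC. None of the 9 genes passed, as for 0% of all genes, and 1 of the 9 (Fshr) had an unadjusted p under 0.05 in edgeR, as did 4.52% of all genes. DESeq2 also called 0. Apart from Fshr the changes lay between -0.26 (Gata4 and Rhox5) and 0.10 (Inhbb). NC and VCR libraries carry the library numbers 1 to 8 and those of the engrafted groups start at 26, so in comparisons across these sets the groups and the numbering cannot be told apart.

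The extent of leukaemia in treated mice was examined by comparing High-VCR with Low-VCR. None of the 9 passed in edgeR, where 7.81% of all genes did, and DESeq2 called 0. Inhbb (0.37 ± 0.16, adjusted p 0.133), Shbg (0.50 ± 0.20, adjusted p 0.126) and Sox9 (0.56 ± 0.18, adjusted p 0.0633) had an unadjusted p under 0.05, as did 27.6% of all genes. High-VCR 2, the lowest library of its group in every one of the 9 genes, weighed on this. Without it Inhbb (0.46, adjusted p 0.0499), Shbg (0.68, adjusted p 0.0204) and Sox9 (0.70, adjusted p 0.0185) passed. Without Low-VCR 4 Sox9 passed (0.68, adjusted p 0.0309). The 17 other Sertoli genes summed to 7461 CPM in High-VCR 2 against 10848 to 12663 CPM in the other 3 High-VCR libraries. Its mitochondrial share was 4.69% against 7.21% to 9.08%, its Leydig sum was 6522 CPM against 7339 to 13626 CPM, and its macrophage sum was 314 CPM against 446 to 636 CPM. Among germ cell markers its spermatocyte sum of 6268 CPM stood above theirs (1767 to 3360 CPM), while its spermatid sum of 6276 CPM lay within theirs (4352 to 8193 CPM). Their part in the result was not tested.

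Between Low-VCR and VCR 3 of the 9 genes passed, 2 lower and 1 higher in Low-VCR, where 13.6% of all genes were lower and 16.7% higher. Inhbb (-0.51 ± 0.16, adjusted p 0.0234) and Shbg (-0.56 ± 0.20, adjusted p 0.0478) were lower in Low-VCR, and Rhox5 was higher (0.46 ± 0.16, adjusted p 0.0389). Low-VCR was also below VCR, with no overlap, in Inha, which did not pass (-0.43 ± 0.18, adjusted p 0.0717), as were 11.5% of all genes. The count of 3 was unstable: it was 0 without VCR 1 or Low-VCR 1, 1 without VCR 2, Low-VCR 2 or Low-VCR 3, 2 without Low-VCR 4, 3 without VCR 4 and 6, all lower, without VCR 3. Over the Sertoli reference only Rhox5 differed (0.75 ± 0.17, adjusted p 0.00818), where 14% of all genes were higher. Spermatid markers were higher in Low-VCR than in VCR (6 of 8) and Leydig (6 of 8) and macrophage markers (6 of 6, median -0.71) lower, and their part in these differences was not tested.

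High-VCR and VCR were not separated for any of the 9 genes (-0.38 for Gata4 to 0.28 for Rhox5; 0 passed in edgeR and 0 in DESeq2, none had an unadjusted p under 0.05, as 8.21% of all genes did, and 0.00605% of all genes passed). Whether the change from NC to VCR differed from those from ALL to Low-VCR and High-VCR was tested by interactions. The labels name no leukaemia cells for VCR but their protocol text is the same for all samples, so these interactions compare drug responses with and without engraftment only if VCR mice were not engrafted. For Low-VCR none of the 9 passed in edgeR, where 5.07% of all genes did, and DESeq2 called 0. Rhox5 (0.72 ± 0.23, adjusted p 0.0701) and Inhbb (-0.61 ± 0.22, adjusted p 0.104) had an unadjusted p under 0.05, as did 25.9% of all genes. Inhbb passed without VCR 3 (-0.73, adjusted p 0.0349), and Rhox5 passed when only the 4 groups concerned were fitted (0.76, adjusted p 0.0424). For High-VCR none passed in either tool, where 0.00605% of all genes did, and Fshr (0.61 ± 0.26) and Rhox5 (0.53 ± 0.23) had an unadjusted p under 0.05 (adjusted p 0.97 for both), as did 4.55% of all genes.

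Other genes of the same pathways did not all move with the 9. The medians of all tested genes, for comparison with those of the lists, were 0.10, 0.08 and 0.16. Of 10 tested genes of the inhibin and activin pathway, 6 rose and 1 fell in VCR. The count was 5 and 0 in Low-VCR and 6 and 1 in High-VCR, with list medians of 1.15, 0.56 and 1.17, so that the share that rose was not far from that of all genes (42.1%, 36.4% and 42.4%). Smad3, which carries activin signals to the nucleus, rose in all 3 (2.93 ± 0.20, 2.23 ± 0.19 and 2.76 ± 0.20) and so did its partner Smad2 (1.11 ± 0.13, 0.79 ± 0.13 and 1.01 ± 0.13). The activin receptor Acvr2a fell in VCR (-0.50 ± 0.13, adjusted p 0.00246) and High-VCR (-0.50 ± 0.13, adjusted p 0.00268). Smad3 also rose over the Sertoli reference in all 3 (1.01, 0.51 and 0.76, edgeR adjusted p 2.54e-06, 0.00214 and 5.09e-05). Smad2 fell over it in all 3 (-0.79, -0.93 and -0.96, edgeR adjusted p 3.81e-05, 1.18e-05 and 5.69e-06).

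Fst encodes follistatin, which binds and blocks activin, and was singled out after its values were seen. It had 0, 2, 0 and 0 counts in NC and 5, 0, 0 and 6 in ALL. VCR libraries had 183, 141, 68 and 75 counts, Low-VCR 60, 66, 62 and 79, and High-VCR 118, 27, 96 and 152. Scaled for library size, VCR held 176 times the NC count (exact 95% Poisson interval of the low count 48.6 to 1450, counting error only). The ratio was 16.5 (9.20 to 33) in Low-VCR and 21.7 (12.1 to 43.4) in High-VCR relative to ALL. Fst passed the edgeR test in all 3 (adjusted p 2.34e-06, 2.25e-04 and 4.67e-05). Inhba, the other beta subunit of inhibin and also named after its values were seen, had at most 14 counts in any library and was below the filter.

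Of 9 tested genes of Amh and BMP signalling 6 rose and none fell in each of the 3 vincristine comparisons, with medians of 1.52, 1.32 and 1.58, where 42.1%, 36.4% and 42.4% of all genes rose. Amhr2, the receptor of Amh and also 1 of the 17 reference genes, rose from 421 ± 19.6 CPM (SD, n = 4) in NC to 1448 ± 290 in VCR (1.78 ± 0.18, adjusted p 1.66e-07). From 361 ± 8.39 CPM in ALL it rose to 1189 ± 123 CPM with low and 1397 ± 253 CPM with high infiltration (1.72 ± 0.18 and 1.95 ± 0.18). Acvr1, a type I receptor of this family, rose in all 3 comparisons (2.78 ± 0.28, 1.80 ± 0.27 and 2.22 ± 0.27), as did Bmpr1a, another (1.52 ± 0.17, 0.99 ± 0.17 and 1.58 ± 0.17).

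Of the 9 listed cyclic AMP genes downstream of Fshr, 4 rose and 4 fell in VCR, where 42.1% and 35.6% of all genes did. In Low-VCR 4 rose and 1 fell, against 36.4% and 15.2% of all genes, and in High-VCR 4 rose and 3 fell, against 42.4% and 30.5%. These counts were close to the shares over all genes, and the medians were -0.12, -0.13 and -0.10. Gnas, the stimulatory G protein that couples to the receptor, rose in all 3 (2.05 ± 0.24, 2.00 ± 0.24 and 2.35 ± 0.24), as did Prkar2b, a regulatory subunit of protein kinase A (1.80 ± 0.25, 1.37 ± 0.25 and 2.18 ± 0.26). Neither Gnas nor Prkar2b passed over the Sertoli reference in any of the 3. Creb1, a cyclic AMP-responsive transcription factor, fell in all 3 (-1.09 ± 0.13, -0.37 ± 0.13 and -0.59 ± 0.13). Prkar2a fell in VCR (-2.0 ± 0.35) and High-VCR (-0.94 ± 0.34), and so did Crem, a related factor abundant in spermatids (-2.30 ± 0.56 and -1.85 ± 0.55). Spermatid markers fell in the same comparisons, as given above, and their part was not tested.

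Of 5 androgen-linked genes 3 rose in each comparison, and 1, 0 and 1 fell in VCR, Low-VCR and High-VCR, with medians of 1.73, 1.62 and 1.74. With 5 genes these counts were near the shares over all genes (42.1%, 36.4% and 42.4% rose). Rhox8, 1 of these 5 genes, is also a reference gene. Serpina5, a protease inhibitor, rose from 84.3 to 129 CPM in NC to 555 to 788 CPM in VCR (2.57 ± 0.19). It also rose in Low-VCR (2.25 ± 0.19) and High-VCR (2.66 ± 0.19). Over the Sertoli reference Serpina5 rose in VCR, Low-VCR and High-VCR (0.67, 0.52 and 0.66, edgeR adjusted p 8.33e-04, 0.00616 and 9.40e-04). Eppin, an epididymal and Sertoli protease inhibitor, rose by 1.74 ± 0.19, 1.92 ± 0.20 and 1.90 ± 0.20 in the same order. Over the Sertoli reference Eppin did not pass in any of these (-0.17, 0.19 and -0.11). Cldn3, a tight-junction claudin, fell in VCR (-2.25 ± 0.40, adjusted p 8.54e-05) and High-VCR (-1.02 ± 0.39, adjusted p 0.0257).

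Among 16 tested genes of testis determination and gonadal identity 12 rose and 4 fell in VCR, 10 rose and none fell in Low-VCR, and 12 rose and 2 fell in High-VCR, with medians of 1.26, 1.15 and 1.44. Of all genes 42.1% rose and 35.6% fell in VCR, 36.4% and 15.2% in Low-VCR, and 42.4% and 30.5% in High-VCR. Over the Sertoli reference 1, 0 and 1 of the 16 genes rose and 10 fell in each comparison. Sox8, Dhh and Nr0b1 among the 16 are also reference genes and helped to set that scale. On that scale 7.14%, 2.67% and 4.81% of all genes rose and 75.3%, 77.9% and 76.4% fell. Nr5a1, a nuclear receptor of Sertoli and Leydig cells, rose by 2.87 ± 0.21, 1.74 ± 0.21 and 2.40 ± 0.21. Nr0b1, which restrains it and is 1 of the reference genes, rose by 1.65 ± 0.16, 1.47 ± 0.16 and 1.79 ± 0.16. Dmrt1, which keeps Sertoli cells male and is also expressed in spermatogonia, rose by 0.75 ± 0.10, 1.20 ± 0.10 and 1.22 ± 0.10. Over the Sertoli reference Dmrt1 fell in Low-VCR (-0.53, adjusted p 0.00129) and High-VCR (-0.74, adjusted p 4.84e-05). Its VCR value on that scale is not reported here. Zfpm2, a Gata4 cofactor, fell in VCR (-1.27 ± 0.38) and High-VCR (-0.97 ± 0.38), as did Sox10 (-1.47 ± 0.38 and -1.12 ± 0.38), and Emx2 fell in VCR (-1.63 ± 0.49). Of 5 tested genes of ovarian identity 3, 2 and 3 rose and none fell, with medians of 1.18, 1.03 and 1.4, against 42.1%, 36.4% and 42.4% of all genes rising. Wnt4, a signal of ovarian development, had 1 to 7 counts in NC libraries and 296 to 569 in VCR. It was at 0.37 ± 0.27 CPM in NC and 0.55 ± 0.54 in ALL (SD, n = 4) against 29.2 ± 9.82 for VCR, 12.1 ± 4.67 for Low-VCR and 21.0 ± 8.13 for High-VCR (6.28 ± 0.57, 4.44 ± 0.54 and 5.24 ± 0.54). Ctnnb1, which encodes beta-catenin, rose by 1.27 ± 0.13, 1.03 ± 0.13 and 1.4 ± 0.13. Over the Sertoli reference Ctnnb1 fell in all 3 comparisons (-0.63, -0.69 and -0.62), whereas Wnt4 rose (4.38, 2.71 and 3.22). Foxl2, an ovarian granulosa factor named after its values were seen, had 0 counts in all 8 untreated libraries, where 3 counts would be at most 0.365 CPM, and did not pass the filter.

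The 9 genes differed in how closely they followed each other. Likeness was measured as the root mean square difference of log2 CPM over 20 libraries after centring each gene, so a small value is a like pattern; it is a description, since all points share the step between untreated and treated libraries. Inha and Sox9 were closest (0.18), then Inhbb and Sox9 (0.20) and Inhbb and Amh (0.22). Shbg and Rhox5 were farthest apart (0.74). Outside the 9, Inha lay nearest to Bcat2 (0.09), Cldn11 (0.10) and Pfkl (0.10), Sox9 to Rhob (0.12), Sema6c (0.13) and Sema7a (0.14), and Inhbb to Trim32 (0.11), Cdc42bpb (0.12) and Epas1 (0.12). Shbg lay nearest to Gpc4 (0.14) and Tspan31 (0.15), and Rhox5 to Hopx (0.18), Gfpt2 (0.19) and Frmpd1 (0.19). Fshr was nearest to Ct55 (0.16), Tsx (0.16) and Mageb16 (0.18), and Amh to Mrps26 (0.17), Ajuba (0.18) and Minpp1 (0.18). Gata4, next to Rhbdf1 (0.22), Plscr3 (0.22) and Lrp10 (0.23), and Wt1, next to Tmem29 (0.28), Gsto1 (0.29) and Mapkapk3 (0.29), had the most distant nearest genes of the 9.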

How the data were processed

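Poly(A)-selected RNA of 20 testis samples in 5 groups of 4 was measured by RNA sequencing with a directional kit, per the labels' protocols, and samples were grouped by their titles. The authors deposited raw counts, whole numbers for each symbol. The submitters' processing notes list STAR 2.7.10b, Subread 2.0.3 with featureCounts, Trimmomatic 0.39, DESeq2 1.36.0 and GRCm39. What each tool did, the annotation, the strand setting and the treatment of human reads are not given in the sources used here. Members and gene lists were chosen with earlier results of these data known.

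The tests used edgeR 4.0.16 in R 4.3.3 (TMM; filterByExpr by group, minimum count 10; one quasi-likelihood fit, 15 residual degrees of freedom; Benjamini-Hochberg over 16534 genes, threshold 0.05). A standard error is the size of the log2 change over the square root of F. The fit was tested on simulated data in which few genes changed, with equal numbers up and down. That setting does not cover changes as broad as those seen here. A second scaling used the median ratio over 17 other Sertoli genes; its left-out libraries, a mean in place of the median and a block were added after seeing the data. The Inha to Inhbb ratio used a pseudocount of 0.5 for log2 and exact permutation. With 9425158 to 16357287 counts per library, 3 counts were 0.167 to 0.365 CPM. Named pathway genes were, per list, vincristine comparison and direction, the 2 that passed with the lowest adjusted p, and the 3 most alike genes per member with an established symbol. Some genes under this rule are not reported here. Alternatives were DESeq2 size factors, library size alone, upper-quartile scaling, other gene filters, DESeq2 1.42.0, limma 3.58.1 (voom), fits on fewer groups, blocks and left-out libraries. Promoter windows and gene models came from RefSeq (GRCm38.p6) and GENCODE M21 (GRCm38).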

Additional observations from a re-analysis of the deposited data

Results flagged for a closer look

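Among 50 groups of 4 libraries examined (the 9 genes and the Inha to Inhbb ratio in each of 5 groups), 3 held 1 library far from the other 3; chance gives about 1 in 20. Inha was at 485 CPM in Low-VCR 1, below 614 to 640 CPM in the rest of its group. Amh was at 8.2 CPM in VCR 3, below 13.7 to 14.3 CPM in the other VCR libraries. Sox9 was at 51.3 CPM in High-VCR 2, below 80.8 to 84.2 CPM in the other High-VCR libraries. Each of these 3 libraries stayed above every untreated library for that gene.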

How the results depend on the processing

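The 9 calls in VCR relative to NC, Low-VCR relative to ALL and High-VCR relative to ALL stood under every alternative run except scaling on the 17 other Sertoli genes. There the counts were 5, 3 and 2. The sign turned for Fshr (-0.45), Inhbb (-0.016), Amh (-0.45), Rhox5 (-0.93) and Wt1 (-0.026) in VCR, for Inhbb (-0.43), Amh (-0.57), Rhox5 (-0.061) and Sox9 (-0.085) in Low-VCR, and for Inhbb (-0.31), Amh (-0.43), Rhox5 (-0.51) and Wt1 (-0.061) in High-VCR. The reference genes rose themselves, so this scaling measures a different quantity. With 1 library left out, those counts were 2 to 4 in VCR, 3 to 3 in Low-VCR and 2 to 4 in High-VCR. They were 5, 3 and 2 with a mean in place of the median. The count of 3 for Low-VCR relative to VCR became 5, all lower, with library size alone or upper-quartile scaling, 1 (Rhox5) with Sertoli scaling, 0 with only those groups, and 0 to 6 with 1 library left out. High-VCR relative to Low-VCR gave 0 to 3 with 1 library left out. The Low-VCR interaction gave 1 with only its groups and 0 to 1 with 1 library left out. The cause of these shifts was not tested. The Inha to Inhbb differences were -0.21 to -0.11 (ALL), 0.25 to 0.33 (VCR), 0.43 to 0.57 (Low-VCR) and 0.38 to 0.50 (High-VCR) with 1 library left out.

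Replicate numbers did not pair the libraries: same-numbered libraries correlated between -0.38 and 0.53 in their deviations, and 4 of 20 correlated best with their own number. With the replicate number as a block, the count for Low-VCR relative to VCR was 1, and no other count moved. The ratio differences of 0.29, 0.53 and 0.44 had an exact sign-flip p of 0.125, the smallest 4 pairs can give. A block for the library number range changed no count among the engrafted groups. Depth limited Amh most, at 33 counts in NC 1.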
